A study of Mus musculus with 10 samples.

Results

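Values of 9 genes of the Notch signalling pathway were examined in the RNA of mouse Sertoli cells and testes. The genes were chosen by symbol: the ligand genes *Jag1* and *Jag2*, the receptor genes *Notch1*, *Notch2*, *Notch3* and *Notch4*, and the target repressor genes *Hes1*, *Hey1* and *Heyl*. All 9 were listed among the 17816 genes of the day 7 table and among the 20007 genes of the adult table. After a filter on low values, 7 of the 9 were tested at day 7 and 9 of the 9 in the adult testis.

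The study asked what RNF20, an E3 ubiquitin ligase that places ubiquitin on histone H2B, does in Sertoli cells. Cre recombinase driven by the *Amh* promoter, which is active in Sertoli cells, was used to disrupt floxed *Rnf20*. The day 7 table holds primary Sertoli cells taken at 7 days after birth, grown as adherent cells with serum and passaged several times, as 2 samples from Rnf20 Flox/Flox mice, which the labels call WT, and 2 from Amh-Rnf20-/- mice, labelled as conditional knockout. They are called controls and knockout samples below. The study's methods name 3 mice per group, while 2 samples per group were available here, and all of them were used. The adult table holds 3 whole testes labelled WT and 3 labelled conditional knockout (cKO), whose exact age and control alleles are not given in the sources used here. The growth protocol in the labels names adult tissue for every sample, also for the Sertoli cells, which were taken as day 7 from their titles and the methods.

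In Notch signalling, a ligand of the Jagged or Delta-like family on one cell binds a NOTCH receptor on its neighbour, and cleavage by ADAM proteases and then by gamma-secretase frees the intracellular part of the receptor. That part enters the nucleus, joins RBPJ and a Mastermind-like protein on DNA, and switches on genes for the HES and HEY repressors. In the testis, JAG1 on germ cells is known to activate NOTCH1 in Sertoli cells, where HES1 and HEY1 repress *Gdnf*, the growth factor gene of spermatogonial stem cells, and *Cyp26b1*, the gene of an enzyme that degrades retinoic acid.

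The 3 target repressors are basic helix-loop-helix proteins. HES1 ends in a short motif that binds Groucho/TLE co-repressors, and HEY1 and HEYL have a diverged form of it near their ends, which is not known to bind them in the same way. The coding bases around that motif are shown because they set *Heyl* apart from *Hes1* and *Hey1*. They come from GENCODE transcripts on GRCm38, are written 5′ to 3′ on the coding strand, and have the 4 codons of the motif in capitals. The *Hes1* stretch lies at chr16:30067399-30067428 (+ strand), the *Hey1* stretch at chr3:8664511-8664540 (− strand) and the *Heyl* stretch at chr4:123246577-123246606 (+ strand).
Hes1: gactccatgTGGAGACCGTGGcggaactga
Hey1: ggcaagcccTATAGACCTTGGgggacagag
Heyl: gcagtgttcTACCACTCTTGGgtctcagaa
Of the 12 motif bases, 9 were identical between *Hes1* and *Hey1*, 7 between *Hey1* and *Heyl*, and 5 between *Hes1* and *Heyl*. The motif was followed by 2 codons in *Hes1*, 7 in *Hey1* and 10 in *Heyl*, before the stop codon.

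Upstream sequences of 6 members, the ligands and the receptors, were found in the RefSeq promoter table for GRCm38.p6, which holds 32851 promoters. Those of *Notch2* and *Jag1* are shown because *Notch2* had the largest rise of the 4 receptors and *Jag1* was the lower of the 2 member ligands in the adult testis by log2 fold change, a choice made after the values were seen. Each gives the 250 bases before the start of the gene, 5′ to 3′ on the strand of the gene, with every GC box (GGGCGG on either strand) in capitals. The *Notch2* stretch lies at chr3:98013288-98013537 (+ strand) and the *Jag1* stretch at chr2:137116521-137116770 (− strand).
Notch2: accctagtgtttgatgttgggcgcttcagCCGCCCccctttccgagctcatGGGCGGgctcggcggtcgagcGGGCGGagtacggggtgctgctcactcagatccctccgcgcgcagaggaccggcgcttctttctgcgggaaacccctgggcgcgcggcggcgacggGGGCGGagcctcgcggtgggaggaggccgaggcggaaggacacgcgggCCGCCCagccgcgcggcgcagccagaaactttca
Jag1: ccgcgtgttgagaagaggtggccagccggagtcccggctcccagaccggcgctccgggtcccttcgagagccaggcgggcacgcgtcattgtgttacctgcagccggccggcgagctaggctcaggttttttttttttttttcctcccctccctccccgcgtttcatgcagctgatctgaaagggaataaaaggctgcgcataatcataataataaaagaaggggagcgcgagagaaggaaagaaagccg
*Notch2* held 5 GC boxes and *Jag1* held 0. *Notch1* and *Jag2* held 5 each, *Notch3* held 4 and *Notch4* held 0, while 32.7% of all promoters of the table held at least 1 in a window of this length. The core of the RBPJ site, TGGGAA on either strand, was in 0 of the 6 member promoters and in 21.6% of all promoters. GC content was 72% in the *Notch2* window and 57.2% in the *Jag1* window, against a median of 52.4% over all promoters.

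The summed counts per sample were 17477268 to 17705347 at day 7 and 15431912 to 16574144 in the adult table. Chi-square over genes, divided by its degrees of freedom, was 2.65 between the controls at day 7 and 34.3 between the knockout samples, so the knockout cultures were much less alike. In the adult table it was 13.7 to 17.6 between WT testes and 21.4 between the second and the third labelled cKO, but 88.1 and 118 between these and the first, which stood apart. The targeted gene *Rnf20* had an FPKM of 16.64 and 16.01 in the controls and of 10.25 and 12.58 in the knockout cells (log2 fold change −0.49, adjusted p = 0.222, edgeR). In the adult table it was not lower in the samples labelled cKO, at 9.16, 5.76 and 9.85 against 4.89, 3.32 and 4.09 in the WT samples (log2 fold change 0.12, adjusted p = 0.688, and 0.97, adjusted p = 0.0168, with total-count scaling, edgeR), so every adult direction below rests on the label. The spermatid markers given below were far lower in each sample labelled cKO than in each WT sample. FPKM are fragment counts divided by gene length and library size, and serve here for levels between genes. Log2 fold changes are of cKO over WT from the quasi-likelihood test of edgeR with TMM scaling, and a gene is called where its Benjamini-Hochberg adjusted p-value over all genes tested is under 0.05.

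In the day 7 Sertoli cells, 0 of the 7 members tested were called, and 0% of all 12880 genes tested were called either. *Notch1* was lower and *Notch3* higher in both knockout samples than in both controls. *Hes1*, *Notch2*, *Jag1* and *Heyl* were the most abundant members in both groups. At an unadjusted p under 0.05 there were 2 members, *Notch1* and *Notch3*, in a table where 15.5% of all genes passed that limit.

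**Figure D1:**
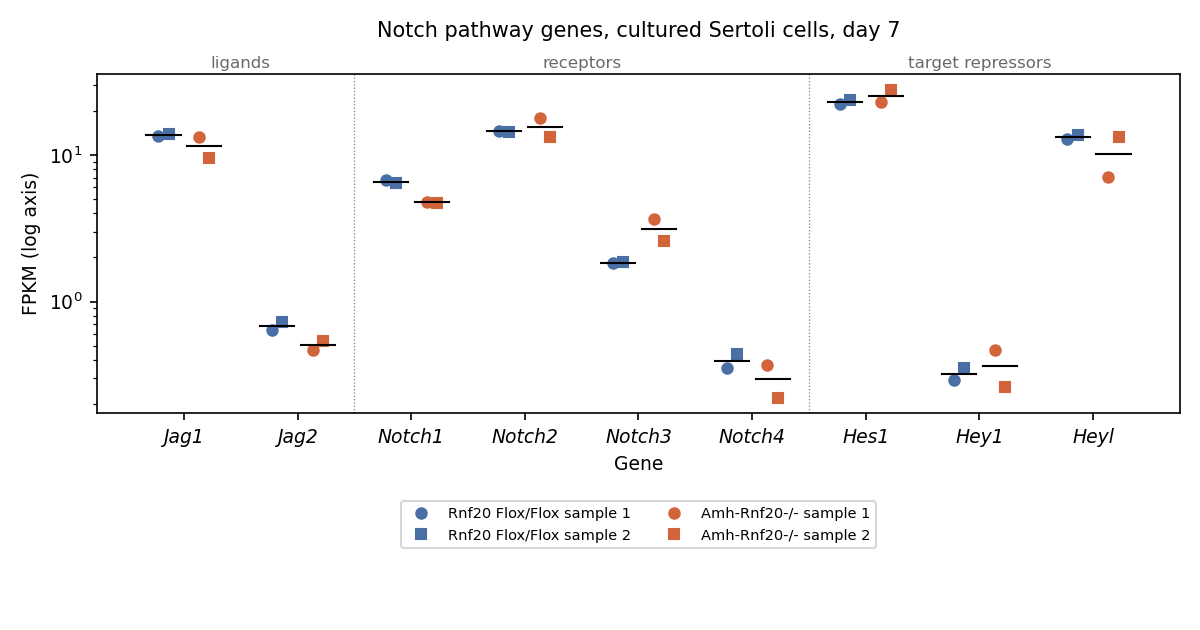
FPKM (log axis) of the 9 Notch pathway genes in cultured Sertoli cells at day 7, with 1 point per sample (blue, Rnf20 Flox/Flox; orange, Amh-Rnf20-/-; 2 samples each) and a black line at each group mean. The blue and orange points are apart for *Notch1* (6.43 and 6.72 against 4.72 and 4.80) and *Notch3* (1.82 and 1.85 against 2.57 and 3.64). They are also apart for *Jag2* (0.64 and 0.72 against 0.47 and 0.54) and narrowly for *Jag1* (13.58 and 13.84 against 9.61 and 13.32). The orange points of *Heyl* are far from each other (7.04 and 13.29).

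Of the ligand genes, *Jag1* had an FPKM of 13.58 and 13.84 in the controls and of 13.32 and 9.61 in the knockout samples. The first knockout sample was close to the controls and the second lower. Its log2 fold change was −0.22 (SE 0.178, adjusted p = 0.604, edgeR). *Jag2* was much less abundant, at 0.64 and 0.72 against 0.47 and 0.54, with a log2 fold change of −0.36 (SE 0.240, adjusted p = 0.534, edgeR). *Jag1* thus made up 95.1% to 95.5% of the summed ligand FPKM in the controls and 94.7% to 96.6% in the knockout samples.

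Among the receptors, *Notch2* had the highest level, with an FPKM of 14.65 and 14.33 in the controls and of 17.82 and 13.23 in the knockout samples. The knockout samples lay on either side of the controls (log2 fold change 0.14, SE 0.163, adjusted p = 0.728, edgeR). *Notch1*, the receptor known from Sertoli cells, was at 6.72 and 6.43 against 4.80 and 4.72. Both knockout samples were below both controls, the samples of each group were close, and the log2 fold change was −0.43 (SE 0.083, adjusted p = 0.169, edgeR). *Notch3*, which in many tissues marks pericytes and vascular smooth muscle, was at 1.82 and 1.85 against 3.64 and 2.57. Both knockout samples were above both controls, with a log2 fold change of 0.80 (SE 0.204, adjusted p = 0.222, edgeR). *Notch4*, known mainly from endothelium, was at 0.35 and 0.44 against 0.37 and 0.22 and was not tested. Summed over the 4 receptors, FPKM was 23.1 to 23.5 in the controls and 20.7 to 26.6 in the knockout samples. The share of *Notch1* in that sum was 27.9% to 28.5% in the controls and 18% to 22.8% in the knockout samples, and the share of *Notch3* was 7.73% to 8.03% against 12.4% to 13.7%.

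*Hes1* was the most abundant member, with an FPKM of 22.45 and 23.67 in the controls and of 22.90 and 27.91 in the knockout samples. These groups overlapped on FPKM, and the log2 fold change was 0.19 (SE 0.132, adjusted p = 0.551, edgeR). *Heyl* was at 12.95 and 13.73 against 7.04 and 13.29, so only the first knockout sample was low (log2 fold change −0.35, SE 0.309, adjusted p = 0.634, edgeR). *Hey1* was near its lower limit, at 0.29 and 0.35 against 0.47 and 0.26, from 9 to 16 counts per sample, and was not tested. On the FPKM scale *Jag1* and *Heyl* overlapped in the controls, as did *Notch4* and *Hey1*, and the other neighbours in the order of levels did not.

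On TMM-scaled counts, 4 of the 7 members had groups that were apart, *Jag2* and *Notch1* lower and *Notch3* and *Hes1* higher, in a table where this held for 51% of the genes. The members' median log2 fold change was −0.22, against −0.0039 for all genes tested. DESeq2 called 0 members, with adjusted p-values of 0.0649 for *Notch3* and 0.0955 for *Notch1*, and 4.51% of all genes. The result depended on which knockout sample was in the fit. Without the first knockout sample, 4 members were called by edgeR, *Notch3* (0.52) and *Hes1* (0.32) higher and *Jag1* (−0.48) and *Notch1* (−0.44) lower, among 20.8% of all genes. Without the second, 4 were called, *Notch3* (1.02) and *Notch2* (0.34) higher and *Heyl* (−0.88) and *Notch1* (−0.42) lower, among 37.7% of all genes. Calls of *Notch1* and *Notch3* were in both of these fits, with the same directions. In both, the lone knockout sample is assumed to vary like the controls, which were the pair that differed least. Without either control sample, 0 members were called.

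Markers of Sertoli cells and of other cells were read in the same cultures, and none was called. The 12 Sertoli cell markers summed to an FPKM of 1428 to 1563 in the controls and 876 to 1200 in the knockout samples, with 0 of 12 called and a median of −0.59 on the log2 scale. The 7 peritubular myoid markers summed to 1969 to 2090 against 3645 to 3694, and the 6 stromal fibroblast markers to 2152 to 2236 against 3306 to 3920, with medians of 0.95 and 0.88 and 0 called in each list. For 6 mural cell markers the sums were 114 to 118 against 126 to 129, with 4 tested and 0 called. Of these 4, *Pdgfrb*, *Abcc9* and *Cspg4* had log2 fold changes above 0 (0.58, 0.40 and 0.34) and *Mcam* below (−0.36). For 10 endothelial markers the sums were 38.4 to 41.1 against 39.9 to 56.4, with 6 tested and 0 called. Most of the endothelial sum was 1 gene, *Cdh5*, at a mean of 29.3 against 37.5. Markers of spermatogonia (10 genes) were also present, at 61.3 to 71.1 against 36.4 to 48.1. The 8 spermatocyte markers summed to 13.7 to 18.1 against 9.04 to 11.5. The 7 Leydig cell markers summed to 156 to 161 against 214 to 302, and the 7 macrophage markers to 13.2 to 15.5 against 12.5 to 26.8. No marker of these lists was at 0 in every sample. The first knockout sample had the lowest Sertoli sum and the lowest *Heyl*, and the highest stromal sum and *Notch3*. It also had the highest Leydig (302) and macrophage (26.8) sums. The part of the cell mix in the values of the members was not tested. In bulk RNA, fewer cells of a type and less RNA per cell cannot be told apart.

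In the adult testis, 8 of the 9 members were called, 5 higher and 3 lower in the samples labelled cKO. *Notch2*, *Notch1* and *Notch3* rose, as did the target repressor genes *Heyl* and *Hes1*. *Jag1* fell. *Notch4* and *Hey1* were called lower after TMM scaling, but their mean FPKM was 1.17 against 1.16 and 1.38 against 1.38, and neither was called after scaling to total counts. Calls were the rule in this table: 81.5% of all 15919 genes tested were called, 40.9% higher and 40.6% lower, so the count of members called is close to the background. Of the 9 members, 4 (*Notch1*, *Notch2*, *Notch3* and *Heyl*) passed the filter on low values only through the samples labelled cKO, where they were high, so neither the count nor the median over the members is support for a direction. With no filter, these 4 were called higher too, with log2 fold changes of 2.13, 3.15, 2.47 and 3.63. In that fit 7 members were called in all, among 14088 of 19983 genes. Higher genes were 50.1% of the calls with TMM and 64.3% with total counts.

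**Figure D2:**
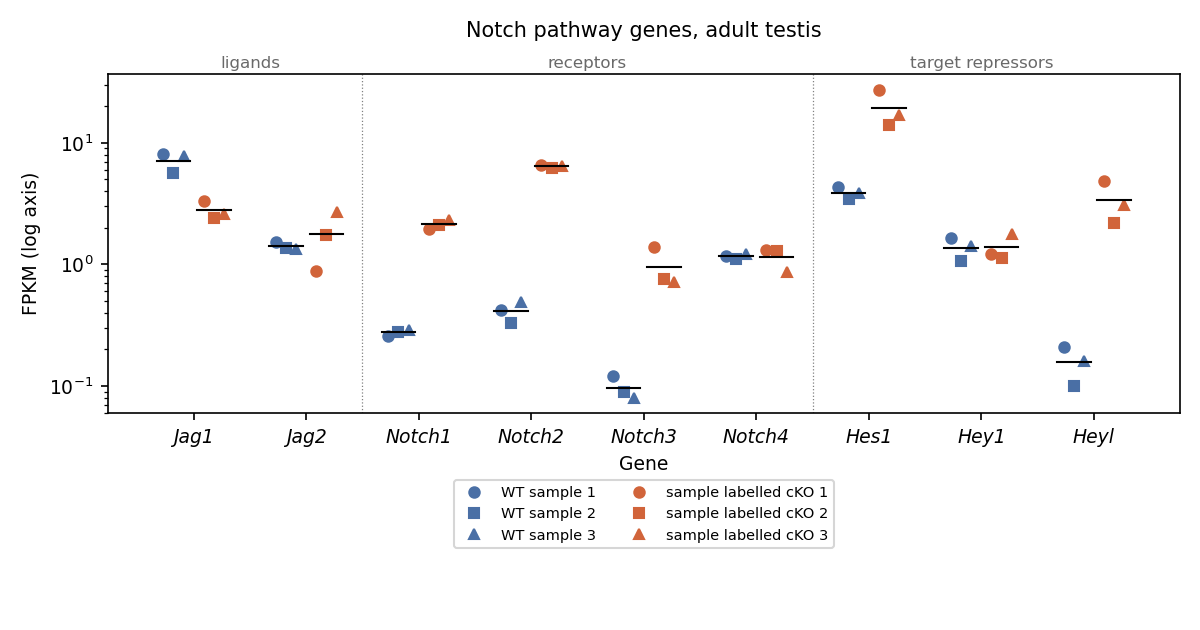
FPKM (log axis) of the 9 Notch pathway genes in adult testis, with 1 point per sample (blue, WT; orange, labelled cKO; 3 samples each) and a black line at each group mean. *Notch1*, *Notch2*, *Notch3*, *Hes1* and *Heyl* have all orange points above all blue points, *Jag1* has them below (2.43 to 3.35 against 5.67 to 8.04), and *Jag2*, *Notch4* and *Hey1* overlap.

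*Jag1* had an FPKM of 8.04, 5.67 and 7.74 in the WT testes and of 3.35, 2.43 and 2.62 in those labelled cKO. All 3 labelled samples were below all WT samples, with a mean of 2.80 ± 0.486 against 7.15 ± 1.29 (SD, n = 3 each). The log2 fold change was −2.22 (SE 0.209, adjusted p = 0.000159, edgeR), and it was −1.37 with total-count scaling (adjusted p = 0.000985). *Jag2* was at 1.54, 1.37 and 1.33 against 0.88, 1.76 and 2.72. Its labelled samples spread to both sides of the WT samples, and its log2 fold change of −0.47 (SE 0.357, adjusted p = 0.255, edgeR) turned to 0.40 with total-count scaling (adjusted p = 0.364). *Jag1* was 80.5% to 85.3% of the summed ligand FPKM in WT and 49.1% to 79.2% in the labelled samples.

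*Notch2* rose the most of the receptors, from an FPKM of 0.42, 0.33 and 0.49 in WT to 6.62, 6.19 and 6.43 in the samples labelled cKO. The labelled samples were close to each other and far above WT, with a ratio of mean FPKM of 15.5 and a log2 fold change of 3.11 (SE 0.170, adjusted p = 3.42e-05, edgeR). *Notch1* went from 0.26, 0.28 and 0.29 to 1.97, 2.13 and 2.34, a log2 fold change of 2.09 (SE 0.164, adjusted p = 8.45e-05, edgeR). *Notch3* went from 0.12, 0.09 and 0.08 to 1.39, 0.76 and 0.72, a log2 fold change of 2.43 (SE 0.415, adjusted p = 0.00188, edgeR). These 3 receptors share no sample between the groups' ranges, and *Notch3* was highest in the first labelled sample.

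*Notch4* was at 1.17, 1.10 and 1.23 in WT and at 1.32, 1.29 and 0.87 in the samples labelled cKO, so the groups overlapped on FPKM. With TMM the log2 fold change was −0.85 (SE 0.245, adjusted p = 0.0175, edgeR), with total counts it was −0.0035 (adjusted p = 0.989), and the call was also lost without the second or the third WT sample (adjusted p = 0.0525 and 0.0556). Shares within a sample do not depend on the scaling. *Notch4* was 58.9% to 61.1% of the summed receptor FPKM in WT and 8.4% to 12.4% in the labelled samples, while *Notch2* was 18.3% to 23.4% in WT and 58.6% to 62.1% in the labelled samples. The most abundant receptor was thus *Notch4* in each WT testis and *Notch2* in each testis labelled cKO. The sum of the receptors was 1.80 to 2.09 in WT and 10.4 to 11.3 in the labelled samples.

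*Heyl* had the largest ratio of the members. Its FPKM was 0.21, 0.10 and 0.16 in WT and 4.90, 2.21 and 3.10 in the samples labelled cKO, a log2 fold change of 3.60 (SE 0.456, adjusted p = 0.000516, edgeR), from a level of as few as 7 counts in a WT sample. *Hes1* was at 4.34, 3.46 and 3.85 against 27.38, 14.07 and 17. All labelled samples were above all WT samples, with means of 19.5 ± 6.99 and 3.88 ± 0.441 (SD, n = 3 each) and a log2 fold change of 1.47 (SE 0.310, adjusted p = 0.00474, edgeR). *Hey1* was at 1.64, 1.07 and 1.42 against 1.21, 1.14 and 1.79, with overlapping groups. Its log2 fold change was −0.83 (SE 0.298, adjusted p = 0.0382, edgeR) with TMM and 0.022 (adjusted p = 0.953) with total counts. The call of *Hey1* was also lost without the first or the third WT sample or the first or the second labelled sample (adjusted p between 0.0890 and 0.134). *Hey1* was 23.1% to 26.5% of the summed target repressor FPKM in WT and 3.61% to 8.18% in the labelled samples, whereas *Heyl* was 2.16% to 3.39% in WT and 12.7% to 14.6% in the labelled samples.

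**Figure D3:**
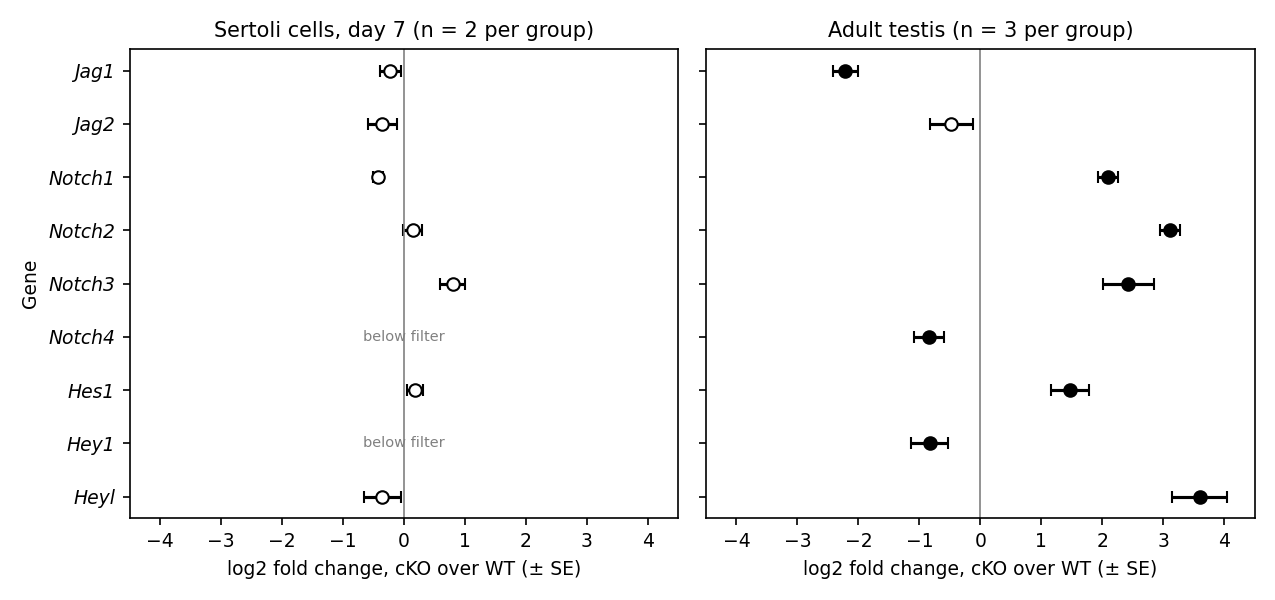
Log2 fold change of cKO over WT (horizontal axis) with its standard error for the members at day 7 (left, n = 2 per group) and in adult testis (right, n = 3 per group), from edgeR after TMM scaling, filled where the adjusted p is under 0.05. No point is filled at day 7, where the values lie between −0.43 and 0.80, and 8 are filled in the adult testis, from −2.22 for *Jag1* to 3.60 for *Heyl*.

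In WT testis the order of mean FPKM was *Jag1*, *Hes1*, *Jag2*, *Hey1*, *Notch4*, *Notch2*, *Notch1*, *Heyl* and *Notch3*, where *Hey1* overlapped *Jag2* and *Notch4*, and *Heyl* overlapped *Notch3*. In the samples labelled cKO it was *Hes1*, *Notch2*, *Heyl*, *Jag1*, *Notch1*, *Jag2*, *Hey1*, *Notch4* and *Notch3*, where *Heyl* overlapped *Jag1*, and each gene from *Notch1* on overlapped the next.

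With the study's thresholds (absolute log2 fold change over 1 and adjusted p under 0.001), 4 members passed, *Notch1*, *Notch2* and *Heyl* higher and *Jag1* lower, where 46.7% of all genes passed. On TMM-scaled counts, the groups were apart for 8 members, against 85.5% of all genes. Over the 9 members the median log2 fold change was 1.47, and it was 0.01 over all genes. Scaling to total counts moved the median of all genes to 0.87, and median-ratio scaling to −0.19. The rises of *Notch1*, *Notch2*, *Notch3*, *Hes1* and *Heyl* and the fall of *Jag1* were called in the same direction under TMM, median-ratio and total-count scaling, in limma on FPKM with a pseudocount of 0.1, and in DESeq2.

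**Figure D4:**
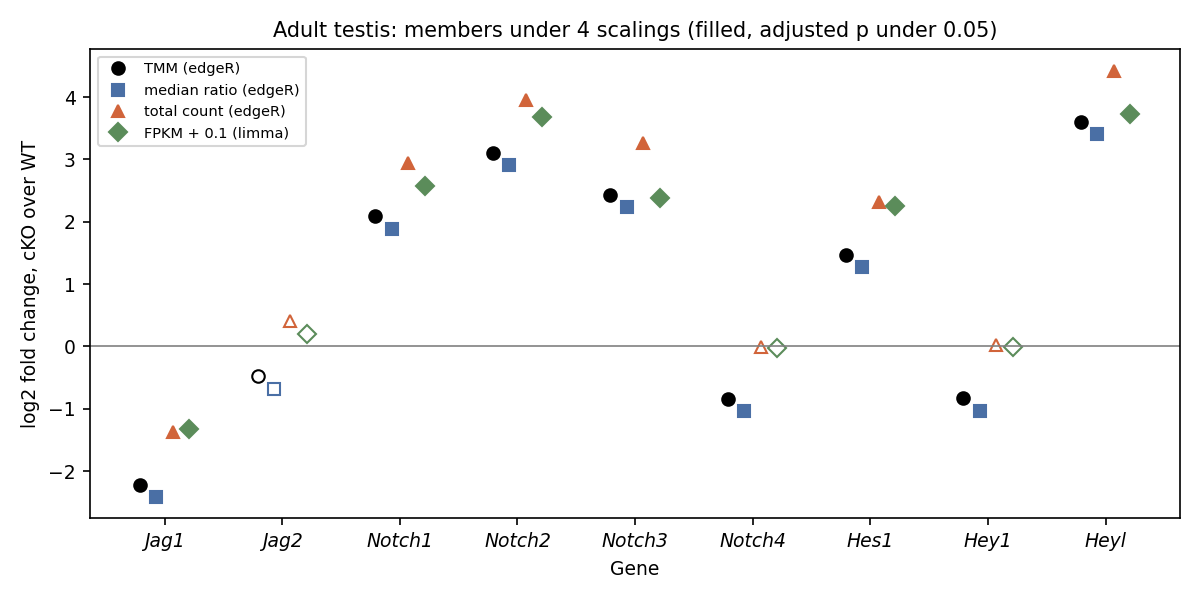
Log2 fold change of cKO over WT in adult testis for each member under 4 ways of scaling the samples (TMM, median ratio and total count in edgeR, and log2(FPKM + 0.1) in limma), filled where the adjusted p is under 0.05. *Notch4* and *Hey1* are filled and below 0 with TMM and median ratio, and open and near 0 with total counts (−0.0035 and 0.022) and FPKM, while the other members but *Jag2* are filled throughout.

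Markers of most cell types examined moved in the adult table. The 8 spermatid markers summed to an FPKM of 122587 to 191191 in WT and 3.58 to 82.8 in the samples labelled cKO, with 8 of 8 called lower, and the 8 spermatocyte markers to 674 to 741 against 3.06 to 241, with 4 of 8 called lower. The 12 Sertoli markers summed to 592 to 742 against 2336 to 5910, with 6 of 12 called higher. The 10 endothelial markers summed to 10.6 to 12.3 against 69.8 to 126, and the 6 mural markers to 3.22 to 5.40 against 30.4 to 58.9, with 8 of 10 and 6 of 6 called higher and median log2 fold changes of 2.85 and 3.06. The 7 peritubular myoid markers overlapped in sum, at 299 to 372 against 240 to 451, with 5 called higher and 1 lower. Most of the WT sum was *Actg2*, the 1 called lower, at a mean FPKM of 289.5 in WT against 2.50. The 5 called higher were *Acta2* (18.6 against 173.7), *Mylk* (5.73 against 52.0), *Tagln* (7.43 against 62.7), *Myh11* (2.04 against 21.8) and *Des* (0.777 against 20.2). The 10 spermatogonium markers summed to 222 to 258 against 53.6 to 160, with 3 called higher and 4 lower of 9 tested. Stromal markers (6 of 6), Leydig cell markers (7 of 7) and macrophage markers (7 of 7) were called higher as well. The first labelled sample had the highest *Hes1*, *Heyl* and *Notch3* of the 6 testes, and also the highest endothelial (126), mural (58.9), stromal (3390), macrophage (768) and peritubular myoid (451) sums. Among the labelled samples it had the lowest Sertoli (2336), Leydig (63494), spermatogonium (53.6) and spermatid (3.58) sums. That sample had the lowest *Jag2* and the lowest spermatocyte sum (3.06). Without it, the log2 fold change of *Jag2* went from −0.47 to −0.069, and those of *Notch3*, *Hes1* and *Heyl* were 2.13, 1.22 and 3.30. In that fit 7 of the 9 members were called, all but *Jag2* and *Hey1*, among 14089 of 16360 genes. The part of the cell mix in these values was not tested, and a change within cells cannot be told apart from a change in which cells were present.

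The wider pathway was followed in a list of 61 further genes, of which 52 were tested in each table. At day 7, 0 of the 52 were called and 11 had an unadjusted p under 0.05, a limit that 15.5% of all genes passed, with a median log2 fold change of 0.02. DESeq2 called 2 of them, *Dlk1* and *Numbl*, both higher, and 4.51% of all genes. *Dlk1*, a non-canonical ligand of the Delta-like family, was at a mean FPKM of 49.4 in the controls and 130.5 in the knockout cells (log2 fold change 1.41, SE 0.277, adjusted p = 0.171, edgeR). *Numbl*, which encodes a relative of the Notch inhibitor NUMB, was at 30.4 against 40.6 (0.46, SE 0.080, adjusted p = 0.158). *Nrarp*, a Notch target gene whose product dampens the pathway, was at 0.915 against 0.42 (−1.08, SE 0.345, adjusted p = 0.279). *Furin*, the protease that cuts NOTCH precursors, was at 53.6 against 41.3 (−0.33, SE 0.094, adjusted p = 0.250). The co-repressor genes *Tle4* and *Tle3* had log2 fold changes of −0.52 each and the co-activator gene *Maml3* of −0.63, with no call. *Tle2* (1.08) and *Tle1* (0.26, named after its value was seen) went the other way, also with no call. *Lfng*, a sugar transferase that modifies NOTCH receptors, was at 18.7 against 11.1 (−0.71, SE 0.309, adjusted p = 0.367). *Dner* (0.99), *Neurl1b* (0.51) and *Hes7* (0.52) had log2 fold changes above 0, with no call, and were not tested in the adult testis.

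In the adult testis, 43 of the 52 wider genes were called, 31 higher and 12 lower, with a median log2 fold change of 0.999, in a table where 81.5% of all genes were called and 40.9% were called higher. Of the 31 higher, 27 were called higher in all 4 other fits with different scaling (median ratio, total count, limma and DESeq2), and of the 12 lower, 7 were called lower in all 4. Total-count scaling called 39 higher and 7 lower, and limma with a pseudocount of 0.1 called 39 and 8. Over all 15919 genes, total-count scaling called 8615 higher and 4775 lower, and limma called 8512 and 4887. Of the 52, 4 (*Dll4*, *Dtx3l*, *Lfng* and *Mfng*) passed the filter only through the samples labelled cKO, where they were high. Neither the counts by direction nor the median over the list is therefore support for a direction. With no filter, 33 of 61 were called higher and 15 lower, where 6941 of 19983 genes were called higher and 7147 lower. All 5 sugar transferase genes were called higher, among them *Lfng* (3.84) and *Poglut1* (1.88). This count includes *Lfng* and *Mfng*, so it is no support for a direction of the role. Of the 10 processing enzymes, 8 were called higher and 2 lower. Among the higher were *Furin* (mean FPKM 1.38 in WT and 26.2 in the labelled samples, log2 fold change 3.40, SE 0.15, adjusted p = 2.79e-05, edgeR) and *Aph1a*, a gamma-secretase subunit gene (2.45).

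Of the other ligand genes, *Dlk1* (0.383 against 10.4, log2 fold change 3.91) and *Dll4* (0.12 against 1.42, 2.70), known from endothelium, were called higher. *Dll3*, named after its values were seen, was lower, at 18.32, 23.45 and 18.39 against 0.07, 2.49 and 2.58 (−4.44, adjusted p = 0.00418, edgeR). Of the 19 nuclear factors tested, 10 were called higher and 5 lower. *Tle2* was higher (3.62) and *Tle3* lower (−2.71), at a mean FPKM of 28.2 in WT against 7.73. *Dtx4*, a Deltex ubiquitin ligase gene, was higher (2.53) and *Neurl1a*, a Neuralized ligase gene, lower (−4.03), in a group of 12 with 5 higher and 4 lower. Of the other targets, *Hes6* was called higher (2.53), and *Hey2* (0.69, adjusted p = 0.173) and *Nrarp* (0.53, adjusted p = 0.369) were not called. With total-count scaling both passed, *Hey2* at 1.56 (adjusted p = 0.0178) and *Nrarp* at 1.42 (adjusted p = 0.0476), and *Hey2* also passed in limma with a pseudocount of 0.1 (1.38, adjusted p = 0.0187).

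**Figure D5:**
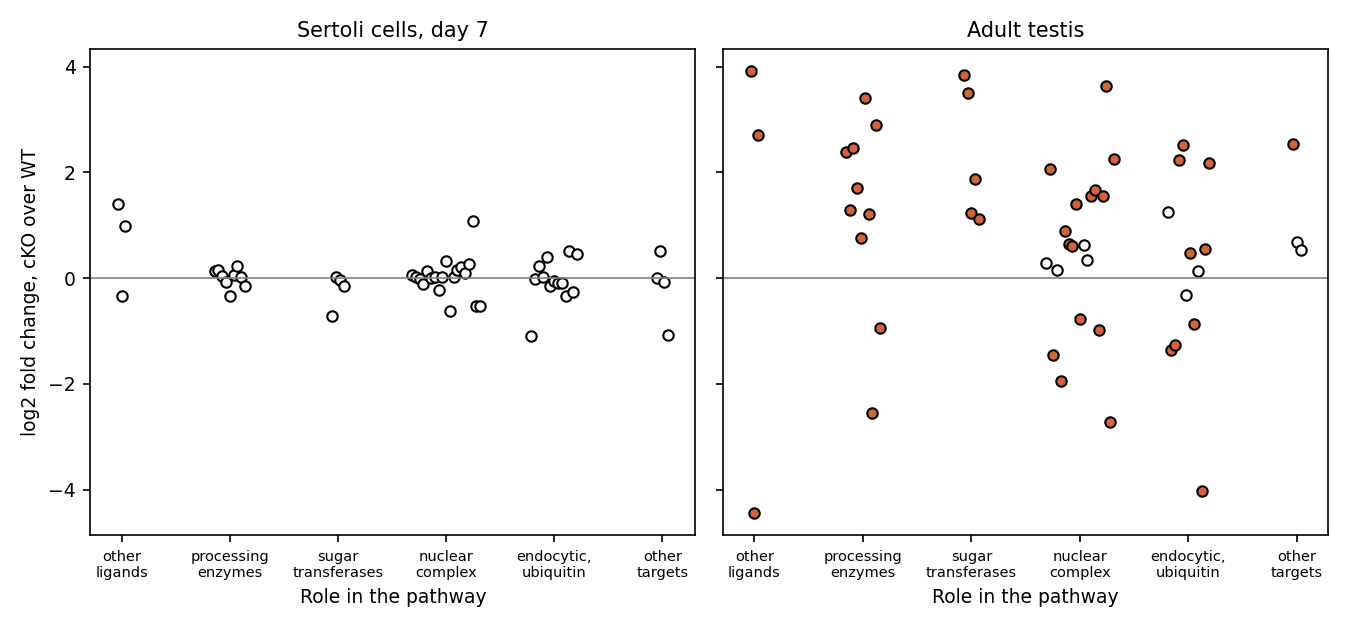
Log2 fold change of cKO over WT for the tested genes of the wider Notch list by role, 1 point per gene, for day 7 Sertoli cells (left) and adult testis (right), filled where edgeR's adjusted p is under 0.05. No point is filled at day 7, and 43 of 52 are filled in the adult testis. There, all 5 sugar transferases and the 3 other targets tested are above 0, and the remaining roles are on both sides. *Dll4*, *Dtx3l*, *Lfng* and *Mfng* passed the filter on low values only through the adult samples labelled cKO.

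*Gdnf* and *Cyp26b1*, which HES1 and HEY1 are known to repress in Sertoli cells, were read beside the repressors. At day 7, *Gdnf* was at an FPKM of 11.84 and 12.04 in the controls, against 3.83 and 9.08 in the knockout samples, with a log2 fold change of −0.85 (SE 0.392, adjusted p = 0.387, edgeR), and *Cyp26b1* was at a mean of 1.08 against 1.56 (0.57, SE 0.178, adjusted p = 0.275). In the adult testis *Cyp26b1* was at 1.84 ± 0.120 against 22.6 ± 7.90 (SD, n = 3 each), a log2 fold change of 2.70 (SE 0.265, adjusted p = 0.000184, edgeR), and *Gdnf*, at 0.243 against 0.91, was not tested.

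The genes with a profile most like each member over the 10 samples were found from the root mean square difference of log2(FPKM + 0.1), centred within each table, among 12377 other genes tested in both tables. This is a description over points that share their libraries. The nearest genes were *Gnl3l*, *Ssr3* and *Capn5* for *Notch2* (0.0727 to 0.0957), *Lgr4*, *Smox* and *Chp1* for *Notch1* (0.0882 to 0.102), and *Farp2*, *Tspan2* and *Pcdh18* for *Notch3* (0.138 to 0.15). For *Hes1* they were *Zfp870*, *Npr2* and *Tob2* (0.103 to 0.113), and for *Heyl* they were *Slc25a23*, *Hsd3b7* and *Mcub* (0.161 to 0.191). For *Jag1* they were *Zcchc2*, *Hipk1* and *Pde8a* (0.118 to 0.140), and for *Jag2* they were *Slco3a1*, *Naa35* and *Taf7* (0.118 to 0.119). The median difference of all genes from a member was between 0.712 for *Hes1* and 1.11 for *Jag1*.

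The members lie on 6 chromosomes of GRCm38.p6. *Notch3* (Entrez 18131, 32120820 to 32166896) and *Notch4* (18132, 34564286 to 34588543) are on chromosome 17, *Notch1* (18128, 26457902 to 26503822) and *Jag1* (16449, 137081451 to 137116520) on chromosome 2, and *Notch2* (18129, 98013538 to 98150367) and *Hey1* (15213, 8663359 to 8667038) on chromosome 3. *Heyl* (56198, 123233556 to 123249870) is on chromosome 4, *Jag2* (16450, 112907803 to 112929812) on chromosome 12 and *Hes1* (15205, 30065357 to 30067796) on chromosome 16. Values cover the whole gene, exons of all transcripts together. In the GENCODE annotation, exons of *Notch1* shared 1068 bases with *0610009E02Rik* and 414 with *Gm13568*, and exons of *Notch3* shared 488 with *Gm17276*, all on the opposite strand, while *Notch2* shared 541 with *Gm42820* on its own strand. Whether reads were counted by strand is not given in the sources used here, so reads of such overlaps cannot be told apart. The other 6 members had no overlapping exon.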

How the data were processed

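RNA from cultured Sertoli cells at day 7 (2 samples per group) and from adult testis (3 per group) was compared within each table, because the tables were made separately; a difference between them was not tested. The authors used HISAT for mapping to the genome (GRCm38.p6), Bowtie2 for the reference genes and RSEM for FPKM; versions are not given in the sources used here. The deposited estimated counts are not normalised, the deposited FPKM are divided by the length of the gene and the size of the library, and the TPM values the authors deposited were not used for a test. In the adult table, 20 further columns hold no value. That the adult table was processed in the same way is known only from its column names.

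Estimated counts were rounded to whole numbers and tested with edgeR 4.0.16 (quasi-likelihood, TMM, Benjamini-Hochberg over all genes tested). Genes were tested where 2 samples (day 7) or 3 samples (adult) reached an FPKM of 0.5, 12880 at day 7 and 15919 in the adult table. The SE is the log2 fold change over the root of the test statistic. TMM factors were 0.984 to 1.02 at day 7, and for adult testis 0.710 to 0.761 in WT and 1.27 to 1.42 in the samples labelled cKO. Alternatives covered scaling, filter, DESeq2 1.42.0, limma 3.58.1 (log2(FPKM + 0.1) or + 1), the replicate number as a block, the study's thresholds and each sample left out. The fit was tested on simulated data. Nothing in the labels says that adult samples came from separate mice, so p-values measure the spread between these samples.

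The members and all lists were chosen with earlier results of these data known. All 9 members, *Rnf20*, *Gdnf*, *Cyp26b1* and, per role of the wider list and table, the 2 genes with the smallest p are named, as are the 3 most like genes of each member. The values of 1 gene that this rule names are not reported here. R 4.3.3 and Python 3.11.15 were used. Promoters come from RefSeq (GRCm38.p6), where *Hes1*, *Hey1* and *Heyl* were not matched, and coding bases from GENCODE vM21 (GRCm38).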

Additional observations from a re-analysis of the deposited data

Results flagged for a closer look

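Among 25 named genes tested in both tables, 6 had groups that did not overlap on TMM-scaled counts and went opposite ways, every knockout sample beyond every control in 1 direction at day 7 and in the other in adult testis. *Notch1* was one, with a log2 fold change of −0.43 at day 7 and 2.09 in adult testis. The others were *Furin* (−0.33 and 3.40), *Lfng* (−0.71 and 3.84), *Tle4* (−0.52 and 2.25), *Rfng* (−0.15 and 1.11) and *Poglut1* (−0.03 and 1.88). The day 7 values were not called, and groups were apart for 51% of all genes at day 7 and 85.5% in adult testis. All of the 6 but *Notch1* were named for a small p within their role, which favours groups that are apart. The share of all genes that were apart in opposite ways was not counted, so the 6 are no support for a change of direction. The difference between the tables was not tested, since they hold different material (cultured cells and whole testes) and were normalised separately.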

How the results depend on the processing

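At day 7, scaling, filter, limma, DESeq2 and the study's thresholds left the count of members called at 0, and with a sample left out it was 0 to 4. The wider list went from 0 called to 2 with DESeq2 and to 0 to 21 with a sample left out, in fits that called 4.51% of all genes with DESeq2 and 20.8% and 37.7% without the first and the second knockout sample. Without the first Amh-Rnf20-/- sample, *Notch2* turned to −0.091 and *Heyl* to 0.034 on the log2 scale, and without the second they were 0.34 and −0.88. In adult testis, 6 to 8 members and 40 to 48 wider genes were called with a sample left out. Those fits called between 12141 of 16409 and 14089 of 16360 genes. The study's thresholds gave 4 members and 26 wider genes, where 46.7% of all genes passed. *Jag2* turned to 0.40 with total-count scaling and to 0.19 and 0.15 with limma (pseudocounts of 0.1 and 1), and *Hey1* to 0.022 with total counts. The cause of these changes was not tested. Over the single members, 73 of 83 alternative values at day 7 and 108 of 125 in adult testis kept their direction and their side of the threshold.

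Replicate numbers did not pair the samples: deviations from the group means correlated between −0.0316 and 0.0316. With the replicate number as a block, edgeR called 0 members, 0 wider genes and 0 of all genes at day 7. In adult testis it called 7 members and 41 wider genes, among 12209 of all 15919 genes. There *Hey1* was no longer called (adjusted p = 0.0695, edgeR). Counting depth limits *Hey1* and *Notch4* at day 7 (9 to 49 counts) and *Heyl* and *Notch3* in WT adult testis, where the lowest samples had 7 and 10 counts.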
